A study of Homo sapiens with 4 samples.

Results

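The colorectal cancer cell lines SW480 and SW620 were compared with HCT116 and LS513 at 4226 shared places, stretches of the genome where loop anchors of all 4 lines overlapped. Each line had 1 library of H3K27ac HiChIP, an assay that ligates neighbouring DNA ends inside fixed nuclei and pulls down those carrying acetylated lysine 27 of histone H3. All 4 lines were untreated, were bought from ATCC and are labelled as colorectal cancer cell lines. The places were drawn from 21770 anchors of HCT116, 22023 of LS513, 9177 of SW480 and 24255 of SW620. A place was formed wherever an anchor of every line covered the same bases, and it took in every anchor touching that stretch. At each place the count was of paired-end tags (PETs) whose ends both fell in the same anchor, given per 1000000 such PETs of the library over all shared places (PPM). A place was put on a side when both lines of that side were above both lines of the other.

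H3K27ac is laid down at active promoters and enhancers by the acetyltransferases p300 and CBP, and wide acetylated stretches often lie beside genes that define a cell's identity. In colorectal cancer, loss of the tumour suppressor APC, or stabilisation of beta-catenin itself, keeps TCF and LEF factors on at WNT target genes. SW480 and SW620 were derived from a primary tumour and a lymph node metastasis of the same patient. HCT116 carries a stabilised beta-catenin. SW480 and SW620 thus share a genome of origin, so the 2 lines of that side are not independent samples, and neither side holds replicates of a condition.

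Promoters are shown for 6 genes, chosen after their values were seen, whose start lay in a place where the gap between the sides exceeded counting error, so that the DNA at these starts can be read beside the values. The sequences are RefSeq's, matched by symbol, and give the 250 bases before the gene's start in build GRCh38.p14, another build than the hg19 of the anchors. Capitals mark matches on either strand, which may overlap. The GC box was searched as GGGCGG, and the motif that NF-Y binds as CCAAT. TCF and LEF factors were given the letters CTTTGAA and also the variant that ends differently, CTTTGAT. The TATA box was searched as TATAAA. For AP-1 the letters were TGAGTCA, together with the alternative centre in TGACTCA. The E-box was taken to be CACGTG, and the palindrome that SMAD proteins bind was GTCTAGAC. The first 3 genes had higher rates in HCT116 and LS513, and the last 3 in SW480 and SW620.
ID3, chr1:23559502-23559751, minus strand: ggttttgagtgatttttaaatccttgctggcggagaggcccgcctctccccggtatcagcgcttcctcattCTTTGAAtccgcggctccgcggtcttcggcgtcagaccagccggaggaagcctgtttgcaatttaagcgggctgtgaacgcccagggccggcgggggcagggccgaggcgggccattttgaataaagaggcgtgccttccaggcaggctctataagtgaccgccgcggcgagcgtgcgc
LCN2, chr9:128149203-128149452, plus strand: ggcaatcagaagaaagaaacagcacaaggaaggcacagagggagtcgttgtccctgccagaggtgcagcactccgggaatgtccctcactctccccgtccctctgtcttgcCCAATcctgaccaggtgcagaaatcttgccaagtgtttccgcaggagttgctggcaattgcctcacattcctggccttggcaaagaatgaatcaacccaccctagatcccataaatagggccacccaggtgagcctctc
CDKN1A, chr6:36678464-36678713, plus strand: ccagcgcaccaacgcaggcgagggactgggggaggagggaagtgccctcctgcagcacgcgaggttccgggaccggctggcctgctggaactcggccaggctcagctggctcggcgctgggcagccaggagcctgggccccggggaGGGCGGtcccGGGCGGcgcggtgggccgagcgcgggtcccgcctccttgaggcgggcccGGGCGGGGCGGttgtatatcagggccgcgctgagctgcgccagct
CD82, chr11:44565413-44565662, plus strand: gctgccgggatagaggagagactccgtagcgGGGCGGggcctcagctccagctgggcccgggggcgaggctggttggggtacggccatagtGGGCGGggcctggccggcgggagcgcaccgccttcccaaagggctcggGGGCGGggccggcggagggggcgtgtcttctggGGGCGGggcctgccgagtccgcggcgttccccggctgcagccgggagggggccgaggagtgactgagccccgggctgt
TGIF2, chr20:36573214-36573463, plus strand: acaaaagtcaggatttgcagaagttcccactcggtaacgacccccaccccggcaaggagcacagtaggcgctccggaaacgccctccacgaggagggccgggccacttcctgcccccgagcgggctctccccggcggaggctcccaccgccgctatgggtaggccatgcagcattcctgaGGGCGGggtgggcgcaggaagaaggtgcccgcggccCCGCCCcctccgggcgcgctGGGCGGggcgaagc
AXL, chr19:41218973-41219222, plus strand: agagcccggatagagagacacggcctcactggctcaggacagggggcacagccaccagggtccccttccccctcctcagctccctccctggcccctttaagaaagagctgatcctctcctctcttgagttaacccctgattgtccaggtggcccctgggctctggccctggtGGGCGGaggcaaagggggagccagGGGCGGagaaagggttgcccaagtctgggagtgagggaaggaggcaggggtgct
The GC box stood 4 times in the CDKN1A window, 4 times in that of CD82, 3 times in that of TGIF2 and 2 times in that of AXL. It is present in 42.3% of the 27305 RefSeq windows of this length. ID3 held 1 TCF and LEF match, a motif found in 6.03% of all windows, and LCN2 held 1 CCAAT, found in 33% of them. None of the 6 windows held the letters of the AP-1 motif (4.16% of all windows), the TATA box (11.1%), the E-box (6.49%) or the SMAD palindrome (0.176%).

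The same-anchor PETs at shared places numbered 322099 for HCT116, 533869 for LS513, 89064 for SW480 and 354838 for SW620, with a median per place of 43, 60, 10 and 40. One PET was thus worth 3.10, 1.87, 11.2 and 2.82 PPM in those lines, so SW480 had the coarsest steps. HCT116 and LS513 shared 21606 anchors with identical ends, and the summed anchor length was equal in both lines at all 4226 places, whereas SW480 and SW620 had equal lengths at 419. The split between the sides therefore coincides with the use of 1 anchor set in HCT116 and LS513, and the lines' biology and the anchor sets cannot be told apart from PET counts alone. Shared places took up 37.3%, 38.5%, 68.2% and 42.0% of each library's same-anchor PETs, in the same order of lines. No starts or bodies of the 6 blood cell marker genes lay in a shared place. Of the other marker lists, 1 of 6 fibroblast genes (COL1A1) and 1 of 5 endothelial genes (VWF) had a place, and the sides overlapped at both. Among the colorectal epithelium genes 5 of 10 had a place, with HCT116 and LS513 above at 3 of 4 places and 1 of them, CDX2, beyond counting error. Over all places these shares were 26.5% and 8.59%. Per kb of anchor HCT116 and LS513 were above at 1 of the 4 places and beyond counting error at 0, against 24.7% and 5.4% of all places.

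Of the 4226 places, SW480 and SW620 were above the other lines at 821, 19.4% of all, and HCT116 and LS513 at 1122, 26.5%. At the remaining 2283 places the sides overlapped. The distance between the sides was measured by the gap ratio, the rate of the lower line of the higher side over that of the higher line of the lower side, with its exact conditional (Clopper-Pearson) 95% interval. The gap went beyond counting error, with the interval over 1 and at least 10 PETs in each line of the higher side, at 308 places for SW480 and SW620 (7.29% of all) and 363 for HCT116 and LS513 (8.59%). These places are called separated here. The intervals say nothing of variation between libraries of one line. With 2 libraries against 2, the smallest two-sided p of an exact permutation test is 0.333, so no p is given. The median gap ratio was 2.27 at the separated places of SW480 and SW620 and 2.20 at those of HCT116 and LS513. It was over 5 at 57 of the former and 51 of the latter. Scaling by all same-anchor PETs of each library, on and off the shared places, moved the median log2 ratio of the sides over all places from -0.11 to 0.46 and turned the split to 483 against 167 separated places. SW480 and SW620 then held 74.3% of them in place of 45.9%.

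The widest gaps on the side of SW480 and SW620 lay at places with almost no PETs in the other lines. Values are given throughout in the order HCT116, LS513, SW480 and SW620, and positions are hg19. Gene names rest on hg19 gene positions written from general knowledge and checked against gene lengths and neighbours in RefSeq's gene table (355 of 358 genes passed), so a name says where a place lies and not which gene it acts on. The place between MAX, the dimerisation partner of MYC, and FUT8, the enzyme of core fucosylation (chr14:65747696-65775014), had 0, 1, 51 and 241 PETs, or 0, 1.87, 573 and 679 PPM. Its gap ratio was 306, with an interval of 52.5 to 12308, the highest lower bound of all places. It rested on 1 PET in LS513. Without LS513 the lower side had 0 PETs, and the ratio was at least 61.5 with that 0 set to 3 PETs. By loop PETs the ratio was 4.004. Between BCAS1 and CYP24A1, the enzyme that inactivates vitamin D (chr20:52728744-52760812), the PETs were 2, 1, 157 and 204, and the rates 6.21, 1.87, 1763 and 575 PPM. The rate was highest in SW480 there, and HCT116 and LS513 stayed under 10 PPM. Its gap ratio of 92.6 (interval 25.3 to 769.7) was 307 without HCT116 and 284 without SW620. By loop PETs it was 1.86.

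A place of 49.4 kb over the start of FGF3, a fibroblast growth factor, and the DNA beside it (chr11:69621567-69670950) had 5, 22, 138 and 677 PETs and 15.5, 41.2, 1549 and 1908 PPM, a gap ratio of 37.6 (interval 23.9 to 62.0). The ratio was 99.8 without LS513 and 4.64 per kb of anchor, the anchors measuring 4.95, 4.95, 30.6 and 49.4 kb. The place carried the highest rate of SW620 among the 10 places given for this side. Within C9orf3, an aminopeptidase gene now called AOPEP (chr9:97605634-97636710), the rates were 3.10, 0, 415 and 307 PPM. Between B4GALT5, a galactosyltransferase, and SLC9A8, a sodium and proton exchanger (chr20:48382372-48396008), they were 15.5, 7.49, 629 and 541. At 2 of these 10 places neither HCT116 nor LS513 had a single same-anchor PET. One covered the start of C20orf112, now called NOL4L (chr20:31158088-31180874), with 23 PETs in SW480 and 61 in SW620, at least 18.5-fold higher when a count of 0 is set to 3 PETs per library. The other lay between PITX1, a homeobox gene, and H2AFY, which encodes the histone variant macroH2A1 (chr5:134596352-134610440), with 31 and 60 PETs, at least 18.2-fold higher. These lower limits rose to 30.6 and 30.1 without HCT116 and to 27.7 and 37.4 without SW620. Without HCT116 the gap ratio at B4GALT5 to SLC9A8 went from 34.9 to 72.2. At C9orf3 it was 98.9 with all lines. Without HCT116 the lower side there had 0 PETs, and the ratio was at least 54.7 with that 0 set to 3 PETs.

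Other wide gaps of SW480 and SW620 lay in EEPD1, at CD82 and in FSTL4. Inside EEPD1 (chr7:36297972-36333912) the rates were 34.2, 35.6, 729.8 and 803 PPM. At the start of CD82, a tetraspanin described as a suppressor of metastasis (chr11:44580141-44610513), they were 27.9, 30.0, 595 and 674, with a gap ratio of 19.9 (interval 11.2 to 37.2). SW480 and SW620 lay close together at both places, and so did HCT116 and LS513. Inside FSTL4 (chr5:132700086-132711384) they were 3.10, 0, 168 and 144. The FSTL4 place rested on 1, 0, 15 and 51 PETs, and its gap ratio was 46.3. Without HCT116 the lower side had 0 PETs, and the ratio was at least 25.6 with that 0 set to 3 PETs.

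**Figure D1:**
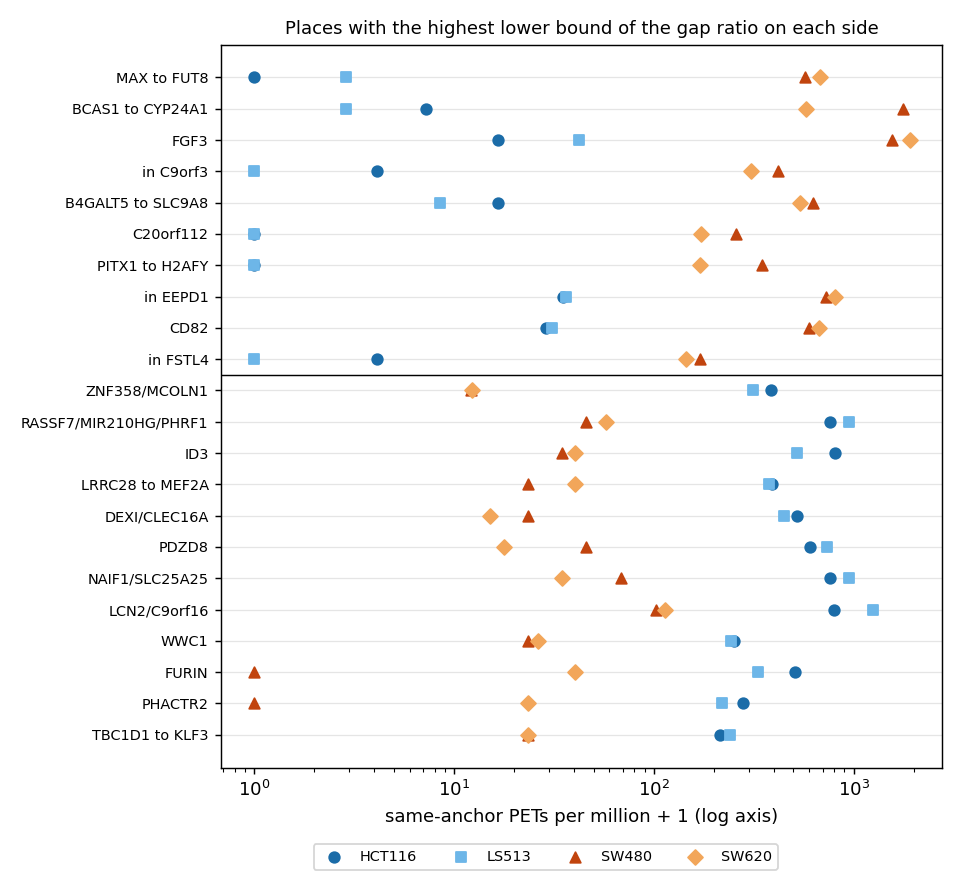
Same-anchor PETs per 1000000 (PPM) plus 1 (log axis) in each of the 4 libraries at 10 places of SW480 and SW620 and 12 of HCT116 and LS513 with the highest lower bounds of the gap ratio, labelled by the gene whose start they cover, the gene they lie in, or the 2 genes they lie between. Above the line SW480 (triangles) and SW620 (diamonds) are higher, below it HCT116 (circles) and LS513 (squares), and at C20orf112 and PITX1 to H2AFY the 2 lower lines overlap at 0 PETs.

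The place with the highest lower bound on the side of HCT116 and LS513 covered the starts of ZNF358, a zinc finger gene, and MCOLN1, a lysosomal cation channel (chr19:7577860-7589443), with 124, 167, 1 and 4 PETs and 385, 313, 11.2 and 11.3 PPM. Its gap ratio was 27.7 (interval 10.6 to 103). A place of 35.0 kb over RASSF7, MIR210HG, the host of the hypoxia-induced miR-210, and PHRF1 (chr11:548077-583116) had 761, 948, 44.9 and 56.4 PPM, a gap ratio of 13.5 that was 2.05 per kb of anchor (interval 0.791 to 7.59). By loop PETs its gap ratio was 1.07. At ID3, an inhibitor of helix-loop-helix factors that BMP signalling induces (chr1:23870480-23897340), the PETs were 260, 277, 3 and 14 and the rates 807, 519, 33.7 and 39.5 PPM, a gap ratio of 13.2 (interval 7.71 to 24.4). The anchors there measured 26.9, 26.9, 1.89 and 2.60 kb, and per kb of anchor the gap ratio was 1.08, with an interval of 0.366 to 5.27 that holds 1. Without LS513 the ratio at ID3 was 20.5.

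LCN2, a secreted protein that binds bacterial siderophores, shares its place with C9orf16 (chr9:130903295-130925076). It had 258, 670, 9 and 40 PETs, or 801, 1255, 101 and 113 PPM, and LS513 carried the highest rate of the 12 places here. Another place on the same chromosome, at NAIF1 and SLC25A25, a mitochondrial carrier (chr9:130826724-130836906), had 764, 944, 67.4 and 33.8 PPM. At PDZD8, an endoplasmic reticulum tether (chr10:119117053-119136995), the rates were 602, 734, 44.9 and 16.9, and at DEXI and CLEC16A (chr16:11032881-11045199) they were 522, 449.5, 22.5 and 14.1. FURIN, the proprotein convertase that cleaves TGF-beta precursors among others (chr15:91396501-91418703), had 163, 176, 0 and 14 PETs, with none in SW480. PHACTR2, a regulator of protein phosphatase 1 (chr6:143855922-143879108), had 90, 116, 0 and 8, again with none in SW480. The lowest gap ratios of the 12 were under 10, at LRRC28 to MEF2A (chr15:99970450-99997604, 388, 378, 22.5 and 39.5 PPM), WWC1, a Hippo pathway scaffold (chr5:167713201-167733839, 251, 242, 22.5 and 25.4), TBC1D1 to KLF3 (chr4:38312931-38323153, 214, 239.8, 22.5 and 22.5), FURIN, PHACTR2 and LCN2. Leaving out 1 library raised some of these ratios by over 1.5 times. Without SW480 they were 31.9 at DEXI, 35.6 at PDZD8 and 22.6 at NAIF1. The ratio was 16.9 at LRRC28 to MEF2A without SW620, 11.1 at LCN2 without HCT116 and 12.8 at FURIN without LS513.

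Anchor length moved with the side at the separated places. At the 308 places of SW480 and SW620 the median summed anchor length was 5.67 kb in HCT116 and LS513, against 13.5 kb for SW480 and 16.6 kb for SW620, and both SW480 and SW620 had longer anchors at 252 places, 81.8%. At the 363 places of HCT116 and LS513 it was 12.9 kb in those lines, against 5.49 kb for SW480 and 7.71 kb for SW620, and both of the former had longer anchors at 282, 77.7%. At the places not separated these shares were 26.0% and 30.3%. Its part in the PET counts was not tested. Dividing by anchor length lowered the gap ratio at 20 of the 22 widest-gap places given above, the other 2 having no PETs on the lower side, and 18 of the 22 stayed separated. Per kb, the ratio was 38.8 at MAX to FUT8, 14.5 at BCAS1 to CYP24A1, 13.1 at C9orf3, 10.5 at B4GALT5 to SLC9A8 and 15.5 at FSTL4. At CD82 it was 3.82 (interval 2.15 to 7.16), and at EEPD1 2.44 (1.54 to 4.12). For HCT116 and LS513 it was 8.55 at ZNF358, 10.4 at DEXI, 10.9 at PDZD8, 3.42 at NAIF1 and 3.14 at LCN2. The intervals at WWC1 (0.570 to 17.5) and PHACTR2 (0.650 to 3.14), like those at RASSF7 and ID3, held 1. Per kb, SW480 and SW620 were above at 619 places (14.6%) and separated at 154 (3.64%), and HCT116 and LS513 were above at 1042 (24.7%) and separated at 228 (5.4%). Of the 308 places of SW480 and SW620, 190 kept their side per kb, 11 turned to the other side and 107 overlapped. Of the 363 of HCT116 and LS513, 279 kept their side, 11 turned and 73 overlapped.

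**Figure D2:**
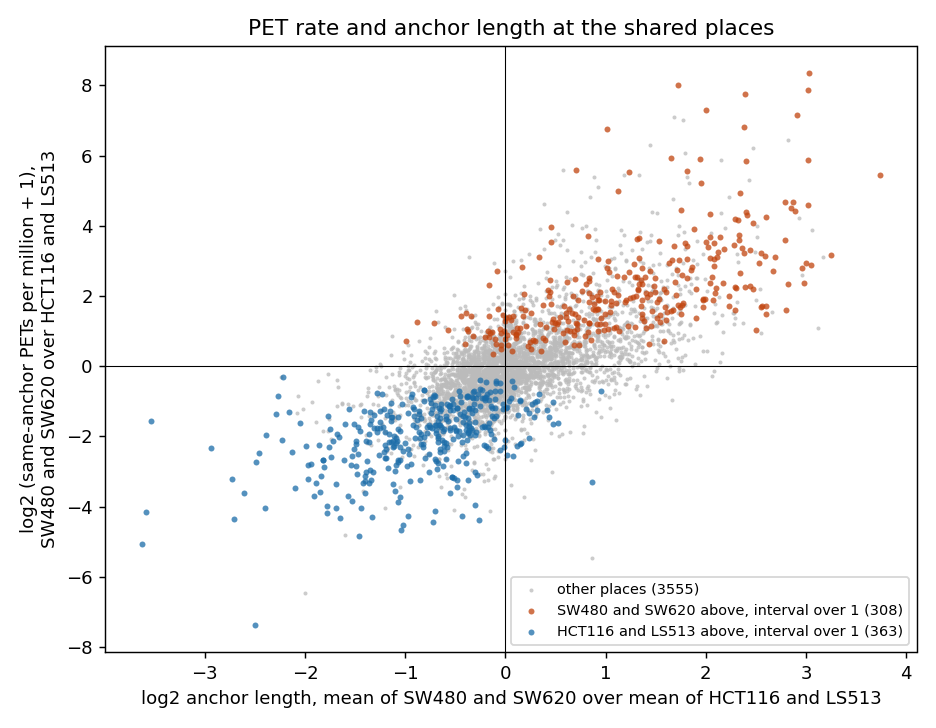
Each point is 1 of the 4226 shared places, with the log2 ratio of mean anchor length (SW480 and SW620 over HCT116 and LS513) on the x axis and the log2 ratio of mean same-anchor PETs per 1000000 (PPM) plus 1 on the y axis. The 308 separated places of SW480 and SW620 lie mostly at the upper right, where their anchors are longer, and the 363 of HCT116 and LS513 mostly at the lower left.

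Matched anchors gave fewer separated places. At 2035 places with 1 anchor in every line and a common overlap of at least 50% of the joint span, rates being set per 1000000 PETs of those places, SW480 and SW620 were above at 333 (16.4%) and separated at 74 (3.64%). HCT116 and LS513 were above at 507 (24.9%) and separated at 75 (3.69%). The 8 places per side with the highest lower bound were named, a number chosen after their values were seen. For SW480 and SW620 the list began with a place inside FGD4, an exchange factor for CDC42 (chr12:32597196-32603562), with 0, 1, 10 and 26 PETs. The second place lay inside ATP10A, a phospholipid flippase (chr15:26087045-26099980), with 68.1, 86.5, 447 and 498 PPM.

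Between AXIN2, a WNT-induced scaffold of the beta-catenin destruction complex, and CEP112 (chr17:63571905-63609729), the PETs were 165, 337, 219 and 481, and the rates 1406, 1620.1, 6116 and 4275 PPM. Its gap ratio was 2.64 (interval 2.29 to 3.04). Between BRD7 and NKD1, which encodes a WNT-induced inhibitor of Dishevelled (chr16:50526215-50545357), the rates were 102, 183, 586 and 1129, and between EXOC2 and FOXQ1, the forkhead gene (chr6:994104-1012429), they were 537, 457, 1536 and 1724. The intervals of the gap ratio were 1.79 to 5.61 and 1.96 to 4.18. C1orf127 (chr1:10992928-11009545) had 1065, 2249.9, 5389.7 and 5359 PPM, SW480 and SW620 being nearly equal. The remaining 2 covered ARMCX4 (chrX:100671461-100675126, 5, 8, 10 and 41 PETs) and GNG3 with BSCL2 (chr11:62471389-62484899, 47, 105, 45 and 148 PETs).

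On the side of HCT116 and LS513, the matched place with the highest lower bound covered the start of PVRL4, the adhesion molecule nectin-4 (chr1:161049367-161063036). It had 208, 610, 12 and 30 PETs and 1772, 2933, 335 and 267 PPM, a gap ratio of 5.29 (interval 2.96 to 10.4). SPINK4, a protease inhibitor made by goblet cells (chr9:33226245-33242611), had 1201, 1827, 307 and 418 PPM. Its anchors still differed in length, at 16.4, 16.4, 8.31 and 12.3 kb. Per kb its gap ratio was 1.80 (interval 0.976 to 3.69), so it was not separated per kb. BID, the BH3 protein cleaved by caspase-8 (chr22:18249776-18269990), had 690.0, 879.8, 111.7 and 222, and a place inside PRKCE, the epsilon isoform of protein kinase C (chr2:46186624-46195124), had 792, 784, 83.8 and 213. In each of these 4, both SW480 and SW620 lay under the lower of the other lines, as the rule for a side requires. The other 4 places covered the starts of GIGYF1 (chr7:100287648-100293952, 37, 54, 1 and 4 PETs), UFM1, a ubiquitin-like modifier (chr13:38921878-38926172, 43, 151, 2 and 7 PETs), and PAN3, a subunit of a deadenylase (chr13:28710156-28715831, 49, 77, 2 and 3 PETs), and lay between IFFO2 and UBR4 (chr1:19332914-19339858, 41, 54, 0 and 4 PETs). SW480 had at most 12 PETs at any of the 8.

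Gene lists were read at 1 place per gene, the place at the gene's start or else the one in its body with most PETs. Of 194 listed genes, 96 had a shared place, at 95 places. They stand as descriptions, since the lists were chosen with results of these data known. Places on 1 side whose gap stayed within counting error, or which missed the minimum of 10 PETs, count as above but not separated. Of the 21 listed genes that were separated, NOTUM, CDX2, JUN, JUNB and MDM2 were among those no longer so with all same-anchor PETs of each library as the denominator, and at NOTUM and JUNB the sides then overlapped. Scaling within each chromosome ended the separation of NOTUM, SP5 and GDF15. NKD1, APCDD1, FOSL1, CDX1, EGFR and CDKN1A are the 6 genes whose separation also held per kb of anchor and within the chromosome. At FOSL1, however, the sides overlapped by loop PETs.

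WNT feedback and stem cell genes had 13 of 22 members at shared places. SW480 and SW620 were above at 5 and separated at 3, and HCT116 and LS513 were above at 2 and separated at 1. Over all places these shares were 19.4% and 7.29% for SW480 and SW620, and 26.5% and 8.59% for HCT116 and LS513. The median log2 ratio of the sides was 0.37, against -0.11 over all places. NKD1 had the widest gap (chr16:50549546-50598111), with 43, 75, 126 and 619 PETs and 133, 140.5, 1415 and 1744 PPM, a gap ratio of 10.1 (interval 7.51 to 13.6) and of 2.55 per kb (interval 1.90 to 3.44). SW480 and SW620 were both far above the other lines, which lay close together. At APCDD1, a WNT inhibitor at the membrane, the rates were 27.9, 30.0, 539 and 70.5 PPM, SW480 alone being high, and the gap ratio of 2.35 was 17.98 without SW620. At SP5, a zinc finger factor induced by WNT, they were 217, 588, 865 and 857, and HCT116 was the lowest. The SP5 ratio of 1.46 was 3.94 without LS513. AXIN2 itself was above in SW480 and SW620 but not separated, with 854, 1171, 1347 and 1268 PPM (gap ratio 1.08, interval 0.958 to 1.22). TDGF1, a co-receptor for NODAL, had 4, 13, 7 and 23 PETs and missed the minimum of 10 in SW480. NOTUM, a secreted enzyme that inactivates WNT ligands, was separated towards HCT116 and LS513 at 1757, 1609, 1291 and 1423 PPM. That place was 66.7 kb of anchor in HCT116 and LS513 against 13.4 kb for SW480 and 15.3 kb for SW620, and per kb the sides were reversed, with 3.52 as the gap ratio of SW480 and SW620. LEF1, a nuclear partner of beta-catenin, was high in LS513 alone, at 139.7, 618, 191 and 16.9. Per kb of anchor, 6 places of the list had SW480 and SW620 above and 0 had HCT116 and LS513 above, against 14.6% and 24.7% of all places. Of the 6, NKD1, APCDD1 and NOTUM were separated per kb, as were 3.64% of all places.

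Among intestinal and endodermal transcription factors, 11 of 20 had a place, with 2 above in SW480 and SW620 and 3 above in HCT116 and LS513. All 3 of the latter were separated. Over all places 19.4% and 26.5% were above for the 2 sides, and 8.59% were separated towards HCT116 and LS513. CDX2, a homeobox regulator of intestinal identity (chr13:28525747-28554263), had 173, 879, 23 and 14 PETs and 537, 1646, 258 and 39.5 PPM. LS513 was the highest and SW620 the lowest, and per kb of anchor the sides overlapped, as they did by loop PETs. The CDX2 ratio of 2.08 was 6.38 without HCT116 and 13.6 without SW480. At a place inside its paralogue CDX1 (chr5:149556967-149571214), the rates were 130.4, 337, 22.5 and 45.1 PPM, with a gap ratio of 2.89 (interval 1.59 to 5.51) that stayed over 1 per kb, at 1.97 (interval 1.08 to 3.75). It was 7.48 without HCT116 and 5.81 without SW620.

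Epithelial junction, keratin and colonocyte genes showed no separated place among 8 places of 9 genes. HCT116 and LS513 were above at 2 of them and SW480 and SW620 at 0, against 26.5% and 19.4% of all places. Scaling by all same-anchor PETs turned that split to 0 and 1. HCT116 and LS513 were above at 3 per kb of anchor (24.7% of all places) and at 5 by loop PETs (23.8%). SW480 and SW620 were above at 0 in both settings, against 14.6% and 19.8% of all places. KRT8 and KRT18, the paired keratins of simple epithelia, share a place with 742, 1309, 629 and 572 PPM, and EPCAM, the epithelial adhesion molecule, had 25, 100, 4 and 13 PETs. CDH1, the gene of E-cadherin, had 1351, 989, 202 and 1206 PPM, SW480 alone being low. Of the mesenchymal genes, 3 of 17 had a place, and each went another way. S100A4, a calcium-binding protein, was above in HCT116 and LS513 with 2142, 2716, 1168 and 2079.8 PPM, not separated at a gap ratio of 1.03 but separated per kb at 1.23 (interval 1.11 to 1.37). The sides overlapped at TGFBI, a TGF-beta-induced matrix protein (24.8, 61.8, 595 and 50.7 PPM). AXL, a receptor tyrosine kinase, was separated towards SW480 and SW620 at 633, 239.8, 842 and 910.3 PPM (gap ratio 1.33, interval 1.01 to 1.74), and per kb the sides overlapped. Without HCT116 the ratio at AXL was 3.51.

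Receptor tyrosine kinase and ERK pathway genes had 19 of 24 members at shared places, with SW480 and SW620 above at 3 and HCT116 and LS513 at 6. Of these, 2 and 4 were separated. Over all places 19.4% and 26.5% were above and 7.29% and 8.59% separated. At a place inside EGFR, the epidermal growth factor receptor (chr7:55131822-55148614), the rates were 196, 449.5, 44.9 and 109.9 PPM, and the gap ratio was 1.78 (interval 1.18 to 2.73) or 2.80 per kb. It was 4.09 without HCT116 and 4.36 without SW620. ERRFI1, an inhibitor of EGFR (chr1:8074485-8090069), had 77, 47, 0 and 0 PETs, with none in SW480 or SW620, at least 2.61-fold higher in HCT116 and LS513, a lower limit of 7.10 without LS513 and 10.4 without SW480. The genes of AP-1, a dimer of JUN and FOS proteins, were split between the sides. JUN had 77.6, 67.4, 11.2 and 16.9 PPM and JUNB 1658, 1667, 1078 and 769, both higher in HCT116 and LS513, whereas FOSL1 had 1155, 1218, 1965 and 2043, higher in SW480 and SW620. FOSL1 stayed separated per kb, with a gap ratio of 1.14, and JUN and JUNB did not. Without SW620 the ratio at JUN went from 3.99 to 6.01. ETV4, an ETS factor downstream of ERK, had 217, 305, 943 and 639.7 PPM on anchors of 4.11, 4.11, 26.4 and 30.9 kb, and per kb HCT116 and LS513 were above, with a gap ratio of 1.48.

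**Figure D3:**
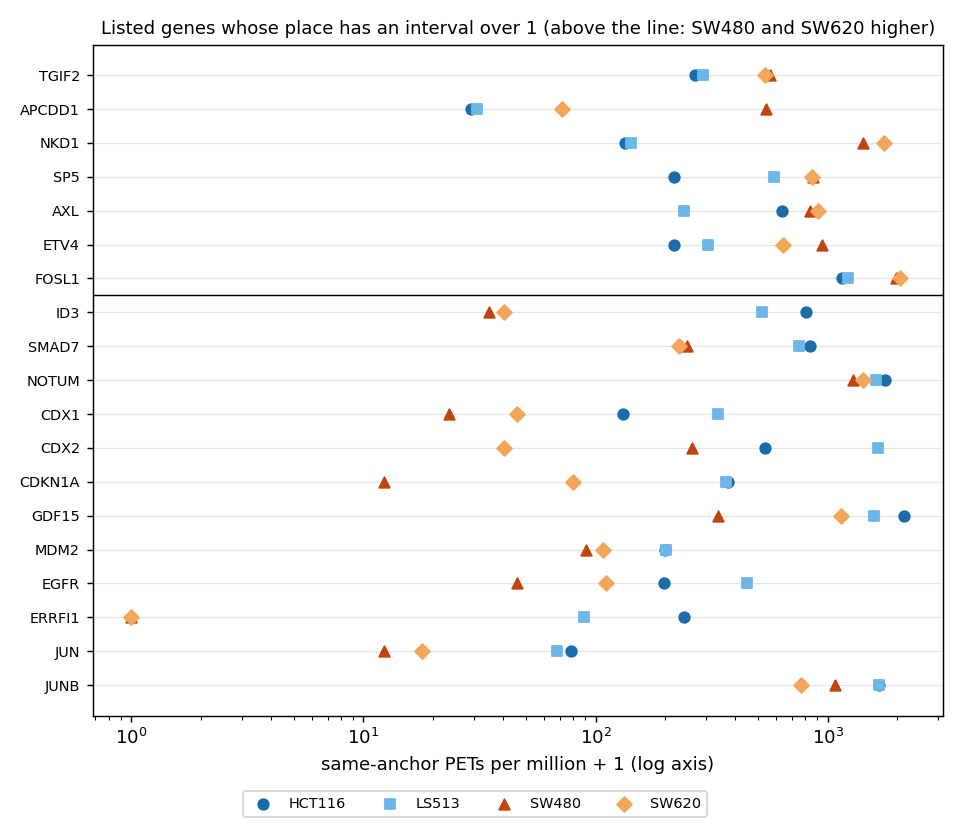
Same-anchor PETs per 1000000 (PPM) plus 1 (log axis) in the 4 libraries at the places of 19 listed genes that were separated, 7 towards SW480 and SW620 above the line and 12 towards HCT116 and LS513 below it. NKD1 shows the widest gap above the line, and ERRFI1 has 0 PETs in both SW480 and SW620.

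Genes known to be induced by DNA damage, such as CDKN1A, MDM2 and GDF15, had 9 of 17 members at shared places. HCT116 and LS513 were above at 6 of the 9 and separated at 3, and SW480 and SW620 were above at 0. Over all places HCT116 and LS513 were above at 26.5% and separated at 8.59%, and SW480 and SW620 were above at 19.4%. The list's median log2 ratio of the sides was -1.02, against -0.11 over all places. CDKN1A, the cell cycle inhibitor p21 (chr6:36642858-36653552), had 120, 194, 1 and 28 PETs and 373, 363, 11.2 and 78.9 PPM. HCT116 and LS513 differed little, and SW480 and SW620 were both lower, with a gap ratio of 4.61 (interval 3.09 to 7.11) and of 2.17 per kb (interval 1.45 to 3.35). Without SW620 the ratio was 32.4. MDM2, a ubiquitin ligase (chr12:69199276-69203867), had 199, 200.4, 89.8 and 107 PPM on anchors of 4.59, 4.59, 3.23 and 3.53 kb, and its gap per kb was 1.43 (interval 0.940 to 2.19). GDF15, a secreted member of the TGF-beta family (chr19:18471706-18509405), had 2129.8, 1579, 337 and 1141 PPM, and its gap ratio of 1.38 was 4.69 without SW620. BTG2, PLK3 and SESN2 were above in HCT116 and LS513 but not separated, SESN2 with 64, 35, 1 and 1 PETs. The sides overlapped at the death receptor gene TNFRSF10B and at BAX, a pore-forming protein of apoptosis, which had 444, 470.2, 763 and 439.6 PPM. Per kb of anchor the list had HCT116 and LS513 above at 4 and SW480 and SW620 at 1, against 24.7% and 14.6% of all places. With all same-anchor PETs as the denominator the counts were again 4 and 1, in place of 6 and 0.

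TGF-beta and BMP pathway genes had 11 of 18 members at shared places, 4 above in SW480 and SW620 and 2 in HCT116 and LS513, against 19.4% and 26.5% of all places. Besides ID3, SMAD7, the inhibitory SMAD that TGF-beta induces (chr18:46446993-46483863), was separated towards HCT116 and LS513 with 838, 749, 247 and 228 PPM and a gap ratio of 3.03 (interval 1.98 to 4.90). Neither gene was separated per kb, and at SMAD7 the sides overlapped by loop PETs. TGIF2, a homeobox repressor of SMAD signalling, was separated towards SW480 and SW620 at 267, 290.3, 561 and 535 PPM. Its gap ratio was 1.84 (interval 1.48 to 2.30). Per kb TGIF2 was not separated either (1.19, interval 0.958 to 1.48), and by loop PETs the sides overlapped. None of the 10 places of laminin, integrin and basal adhesion genes was separated, with 4 above in SW480 and SW620 and 1 in HCT116 and LS513, against the same 19.4% and 26.5%. Constitutively expressed genes had 0 of 10 places separated, and their median log2 ratio was -0.01. GAPDH had 276, 209.8, 292 and 256 PPM and ENO1 624, 624, 797 and 527.

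**Figure D4:**
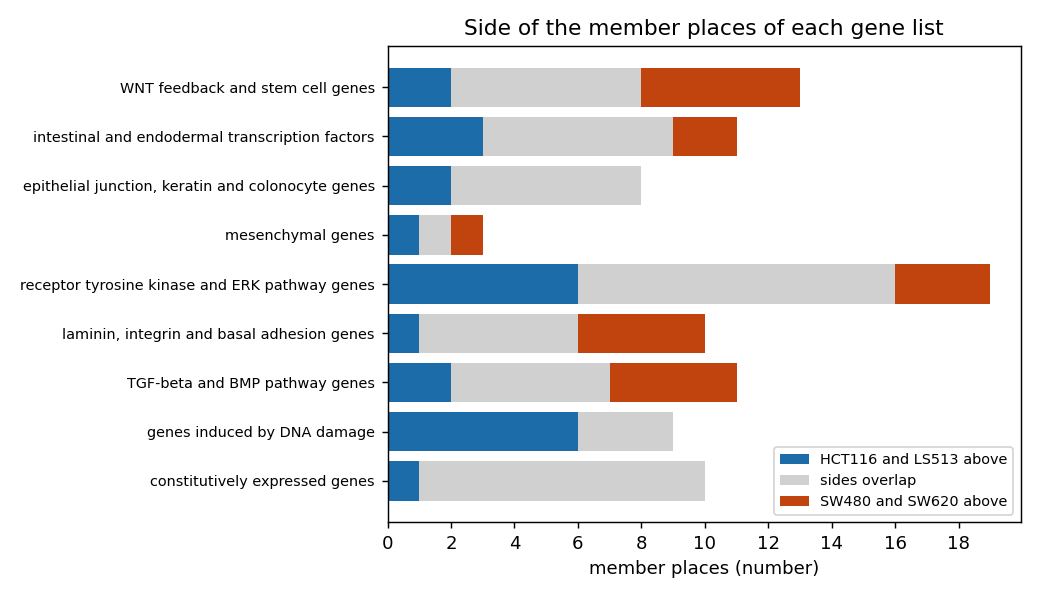
Number of member places of each of 9 gene lists (x axis) with HCT116 and LS513 above (blue), with the sides overlapping (grey) and with SW480 and SW620 above (red), whatever the size of the gap. The DNA damage-induced genes have 6 places on the side of HCT116 and LS513 and 0 on the other, and the WNT genes have 5 on the side of SW480 and SW620 and 2 on the other.

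Loop PETs, which join an anchor to another one from 5 kb to 2 Mb away, were counted apart from the same-anchor PETs. By loop PETs ending at a place, per 1000000 such ends, SW480 and SW620 were above at 836 places (19.8%) and HCT116 and LS513 at 1007 (23.8%). Of the 308 separated places of SW480 and SW620, 209 had their loop PETs on the same side and 6 on the other. Of the 363 of HCT116 and LS513, these counts were 252 and 7. Same-anchor and loop PETs come from the same libraries, anchors and pull-down. Loops also linked separated places of the same side to each other. For SW480 and SW620 such pairs held 140, 338, 422 and 1584 loop PETs in the 4 lines. Per 1000000 loop PETs of the library these were 1716, 1522, 30392.5 and 10392, so the rate was highest in SW480. Both SW480 and SW620 were above the other lines at 65 pairs, below them at 2 and overlapping with them at 60. For HCT116 and LS513 there were 211 pairs with 497, 1367, 56 and 424 loop PETs, or 6092, 6155, 4033 and 2782 per 1000000. The low count of SW480 thus went with a rate above that of SW620. Of the 211 pairs, 49 had both HCT116 and LS513 above, 0 had both below and 162 overlapped.

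The pair with most loop PETs joined the NKD1 place to chr16:50477708-50516519, 76.7 kb away, with 7, 26, 41 and 260 loop PETs. Per 1000000 loop PETs of the library these were 85.8, 117, 2953 and 1706. The matched place between BRD7 and NKD1 was joined to the same 2 places, by 15 and 23 loop PETs in SW480 and 109 and 148 in SW620. At all 3 places of this locus and all 3 links the rates were higher in SW480 and SW620. The other links given here were chosen after their values were seen. At FGF3, a link to chr11:69673659-69712234 held 0, 2, 29 and 98 loop PETs. The AXIN2 to CEP112 place was joined to chr17:63675064-63722234, 108 kb away, by 2, 7, 20 and 29. On the other side, the places chr9:131926906-131949432 and chr9:132218057-132271368 were joined across 306.5 kb by 38, 87, 2 and 35 loop PETs, or 466, 392, 144 and 229.6 per 1000000. ERRFI1 was joined to chr1:8128715-8159274, 61.7 kb away, by 23, 18, 0 and 6.

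Separated places were unevenly spread over the chromosomes. For SW480 and SW620 the share was 17.5% of the 143 places on chromosome 20, 15.7% of 191 on chromosome 7 and 12.8% of 234 on chromosome 11. Those for HCT116 and LS513 were 18.9% of the 169 places on chromosome 19, 15.8% of 139 on chromosome 9 and 14.9% of 464 on chromosome 1. With each place scaled to the same-anchor PETs of its own chromosome, which takes out a difference common to the whole chromosome, 295 places (6.98%) were separated for SW480 and SW620 and 338 (8%) for HCT116 and LS513. Chromosome X then had 3 separated places for SW480 and SW620 in place of 12, and chromosome 19 had 18 for HCT116 and LS513 in place of 32. Chromosome 20 still had 17 of 143 and chromosome 7 had 27 of 191. The places with the widest gaps given above all stayed separated under this scaling. Copy number was not measured here.

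**Figure D5:**
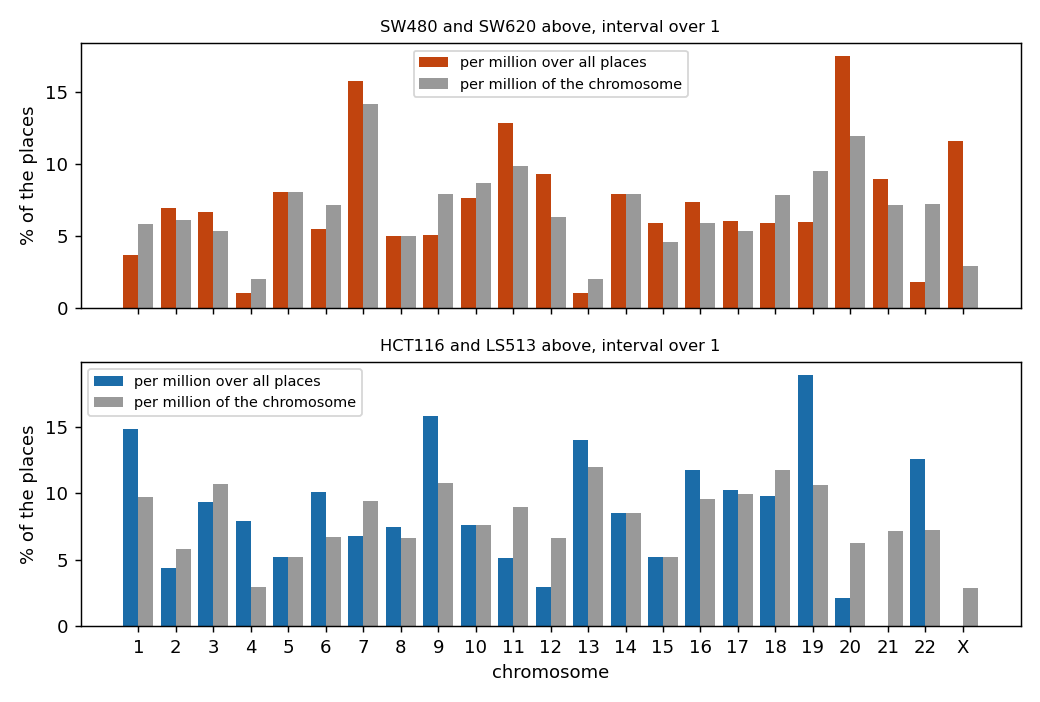
Percent of the shared places of each chromosome that were separated towards SW480 and SW620 (upper panel) and towards HCT116 and LS513 (lower panel), with rates in PPM over all places (coloured bars) and per 1000000 PETs of the same chromosome (grey bars). Chromosome 20 and chromosome 7 stand highest in the upper panel under both scalings, and chromosome X drops from 12 places to 3.

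Across all places, the rates of the lines were related as log2 of PPM plus 1. Pearson's r was 0.890 for HCT116 with LS513 and 0.680 for SW480 with SW620. Between the sides it was 0.581 for HCT116 with SW480, 0.687 for HCT116 with SW620, 0.597 for LS513 with SW480 and 0.710 for LS513 with SW620. Per kb of anchor, r was 0.747 for SW480 with SW620, 0.739 for HCT116 with SW620 and 0.779 for LS513 with SW620. At the 2035 matched places r was 0.875 within HCT116 and LS513, 0.775 within SW480 and SW620, and 0.719 to 0.828 between the sides. These values describe 4 libraries of unequal depth over shared places and are not independent of anchor length.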

How the data were processed

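H3K27ac HiChIP was measured in 4 untreated cell lines with 1 library each. MboI digestion, biotin labelling, ligation, H3K27ac pull-down and Tn5 tagging made each library, per the labels' protocols. HiC-Pro and the build hg19 (GRCh37) are named per the submitters' processing notes. Which caller and anchors were used, and in which versions, is not given in the sources used here. Raw counts of PETs per anchor pair, whole and not normalized, are what the authors deposited. Chromosomes 1 to 22 and X were used, and tables of pairs between chromosomes and of significance values were not used.

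Same-anchor PETs were summed per shared place and scaled per 1000000 of the library over all shared places (PPM). Library totals ranged from 89064 to 533869, so that 3 PETs, to which a count of 0 was set for a fold, equal 33.7 PPM in SW480 and 5.62 in LS513. The labels name no molecular identifiers, and intervals and floors cover counting error only. Named places were the 12 per side with the highest lower bound of the gap ratio, and up to 4 members per list and side by the same rule. Other list members were named after their values were seen. Just inside the threshold for SW480 and SW620 lay a gap of 1.15 (interval 1.00 to 1.32), just outside 1.61 (1.00 to 2.50). For HCT116 and LS513 these were 1.34 (1.00 to 1.80) and 1.65 (0.999 to 2.80). The members and gene lists were chosen with earlier results of these data known. The hg19 positions of 358 genes were written from general knowledge, those at the named places after the places were seen, and 355 passed a check against the chromosome and gene length or neighbours in RefSeq's GRCh38.p14 table. No coordinate was converted. Some genes, and the places named by them, are not reported here. The side calls were tested on simulated data. Alternatives covered the denominator, anchor length, the definition of a place, the minimum of PETs, thinning, loop PETs and leaving out each library. Scripts ran in Python 3.11.15 with pandas 2.3.3 for tables, scipy 1.17.1 for intervals, numpy 2.4.6 and, for figures, matplotlib 3.10.9.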

Additional observations from a re-analysis of the deposited data

How the results depend on the processing

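The 22 reported places with the widest gaps stayed separated under every denominator and with the places thinned to 89064 PETs per library. They also did so without any 1 library, a setting that cannot lower a gap ratio and so could hardly end a separation. Per kb of anchor 4 of them, RASSF7, ID3, WWC1 and PHACTR2, kept the side but not the separation. FSTL4 was lost with a minimum of 20 PETs and PHACTR2 when anchors were merged into 1 span. By loop PETs 14 of the 22 were no longer separated, and at PDZD8 the sides overlapped. None of the 22 reversed in these settings. Of 19 separated list members, 2 reversed per kb of anchor: the gap ratio in the original direction was 0.250 at NOTUM and 0.278 at ETV4.

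Places with both SW480 and SW620 above, 821 in the main analysis, numbered 333 with matched anchors only, and ranged from 1161 to 1603 when a library was left out. Those with HCT116 and LS513 above, 1122, numbered 590 with all same-anchor PETs as the denominator and 507 with matched anchors, and ranged from 1516 to 1886 without a library. Separated places of SW480 and SW620, 308, numbered 483 with all same-anchor PETs, 154 per kb of anchor, 74 with matched anchors, 172 after thinning and 106 by loop PETs, and ranged from 444 to 725 without a library. Separated places of HCT116 and LS513, 363, numbered 167, 228, 75, 177 and 161 in the same settings, and ranged from 593 to 827 without a library. Leaving out a library leaves its side with 1 line, so the condition is easier to meet. The most places for a side came without SW480 for 3 of these counts and without SW620 for the fourth. Of the gene list places, 25 had HCT116 and LS513 above, and 14 did with all same-anchor PETs, an alternative chosen after seeing the data. Matched anchors test fewer places, and the cause of the other changes was not tested. No paired analysis was possible because each line had 1 library and the shared number 1 pairs nothing. Depth limits SW480 most: its median of 10 PETs per place is also the minimum for a separated place.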

Other observations

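Besides the separated places, 37 places had SW480 and SW620 above with an interval over 1 but with fewer than 10 PETs in one of these lines, against 1 such place for HCT116 and LS513.

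Of the 308 separated places of SW480 and SW620, 104 were also separated per kb of anchor, and 69 were separated per kb and per chromosome with their loop PETs on the same side. For HCT116 and LS513 these counts were 131 and 73 of 363. Among the listed genes reported here, NKD1, APCDD1, CDX1, EGFR and CDKN1A met all these conditions.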
